A study of Mus musculus with 18 samples.

Results

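Livers of mice injected with carbon tetrachloride (CCl4) were compared with livers of control mice, 6 against 6, over all 434 circular RNAs that the deposited table holds. These 12 libraries were taken from the 18 of the series by their labels; the other 6, from mice that received a treatment on top of CCl4, were not used. Both groups were male C57BL/6 mice, 6 weeks old at the start, and their livers were sampled in week 22. Controls had water by gavage each day and olive oil injected into the abdomen 2 times a week, while the CCl4 group had the same gavage and CCl4 injected on the same schedule. Each group had 15 mice, of which 6 were sequenced, and the labels call the CCl4 mice a liver cancer model. Whether a piece of liver came from a tumour or from the tissue around it is not given in the sources used here. The 12 mice were separate animals.

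A circular RNA forms when the spliceosome joins the end of an exon to the start of the same exon or of an earlier one. The closed loop lacks free ends, resists exonucleases and can outlast the linear messenger RNA of its host gene, and a few such loops are known to bind microRNAs or proteins. CCl4 is turned into a reactive radical by cytochrome enzymes of the hepatocytes around the central vein, and repeated injections lead to cell death, regeneration, inflammation and scarring. In the sequenced RNA a circular RNA is seen through reads that cross its back-splice junction. Its level, given here as CPM, reads scaled to a library total, need not follow the linear RNA of the host, which was not used here.

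A host gene was found by position in GRCm38 for 429 of the 434 circular RNAs, and 419 of these lay in protein-coding genes. The 374 host genes include 44 with 2 or more circular RNAs. The distance between the joined ends had a median of 4691 bp and ran from 143 to 189347 bp. Within a library every value was a multiple of what 1 read is worth, which allowed the reads to be recovered: 900 to 2840 per control library and 930 to 1481 per CCl4 library. The 3 reads that a value of 0 still allows correspond to 0.135 CPM in control 3 and 0.918 CPM in control 2, the extremes of the 12, and such floors cover counting error only. Of all values, 32.3% in controls and 33.5% in CCl4 livers were 0. The tissue label was checked through circular RNAs alone: 9 from 7 hepatocyte marker genes were in the table, among them Slco1b2, Abcc2, Ces1c and Cyp1a2.

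The total output of circular RNA did not separate the groups. Between 246 and 334 circular RNAs were above 0 in a control library (mean 294 ± 29.6, SD, n = 6) and between 256 and 312 in a CCl4 library (289 ± 20.3, SD, n = 6; exact permutation p = 0.736, two-sided). The CPM values of a library summed to 242 ± 190 in controls, from 40.4 in control 3 to 550 in control 4, and to 149 ± 36.4 in CCl4 livers, from 85.5 to 184 (SD, n = 6 each; exact permutation p = 0.323). Recovered reads numbered 1588 ± 682 and 1231 ± 208 (exact permutation p = 0.264). On all 3 measures the CCl4 libraries lay within the range of the controls. For summed CPM and reads, controls 3 and 4, both deposited later, set the ends of that range. Controls 1, 5 and 8 ran from 112 to 187 CPM, 1321 to 1836 reads and 287 to 334 detected. CCl4 8 lay below them on all 3 measures (85.5 CPM, 930 reads, 256 detected). CCl4 1, 2 and 4 lay below them on reads, and CCl4 2 and 4 on circular RNAs detected. Against these controls the difference in mean summed CPM was smaller. Presence pointed both ways: 161 circular RNAs were above 0 in more CCl4 than control libraries, 162 in more control libraries, and 111 in equal numbers. Only 21 of 434 were above 0 in all 12.

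Of the 434, limma called 2 higher in CCl4 livers (0.461% of those tested) and 0 lower (0%) at an adjusted p under 0.05. A circular RNA seen only in controls could not be in the table, as set out below, so these counts are not on equal terms. At an unadjusted p under 0.05 there were 33 (7.6%), of which 9 were higher and 24 lower. The median log2 difference over all 434 was −0.29, and 162 (37.3%) had a positive one. With each library scaled to its own sum the median was −0.03 and 209 (48.2%) were positive, so the surplus of lower values moved with the scaling. That scaling called 3 higher and 1 lower, adding a circular RNA of Tlk1 and one of Ttc39c.

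**Figure D1:**
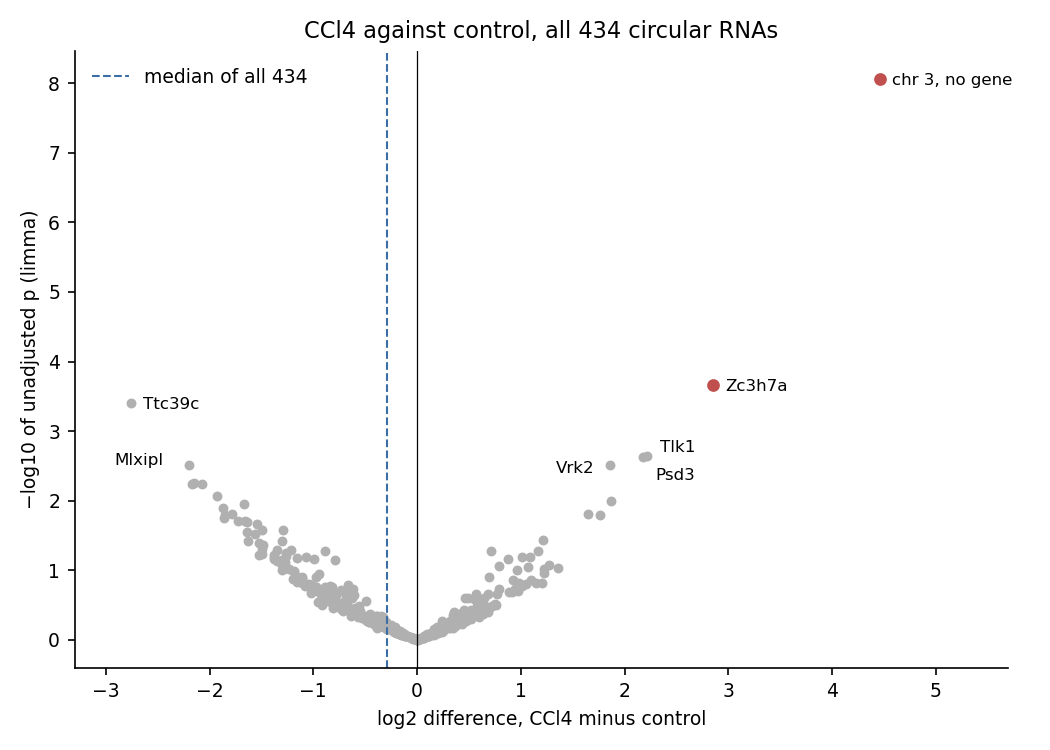
Each point is 1 of the 434 circular RNAs, by its log2 difference between CCl4 and control livers (x axis, on the log2(CPM + 0.129) scale) and the −log10 of its unadjusted limma p (y axis). The 2 red points, on chromosome 3 and in Zc3h7a, passed an adjusted p of 0.05, and the dashed line marks the median of all, −0.29.

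The circular RNA with the widest difference lies in no annotated gene. It joins positions 5860581 and 5860757 of chromosome 3, a span of 177 bp. The nearest genes are the pseudogene Gm8797, 109286 bp before it, and the long non-coding RNA gene Gm46796, 246260 bp after it. It was listed at 0 in all 6 control livers. In CCl4 livers 1, 2, 4, 5, 7 and 8 it stood at 7.72, 0, 3.15, 2.2, 7.08 and 9.19 CPM, a mean of 4.89 ± 3.62 CPM (SD, n = 6). Liver 2 of the CCl4 group thus matched the controls, and the other 5 lay above every control. These values rest on 276 reads in CCl4 libraries and 0 in control libraries. The floor of 3 reads, averaged over the controls, was 0.432 CPM, so the CCl4 mean was at least 11.3-fold higher with counting error alone considered. On the log2 scale the difference was 4.46 (SE 0.77, limma adjusted p = 3.74e-06). Being at 0 in all 6 controls, it is in the table only through libraries of CCl4-injected mice. Every circular RNA there is above 0 in at least 9 of the 18 libraries, and the limma p takes no account of this selection. It passed in 31 of 32 alternative settings, the exact rank-sum test being the exception (adjusted p = 0.658), and an exact permutation test over libraries gave the same adjusted value.

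A floor does not cover every way in which a circular RNA can be listed at 0. The other 5 circular RNAs among the 6 of highest mean level were also listed at 0 in single libraries: Ube3a in control 3 and CCl4 8, Rmdn2 in control 2, Gramd1c in CCl4 7, Alg12 in CCl4 8 and one of Ttc39c in control 8 and CCl4 8. None of these 5 was at 0 in more than 2 of the 12 libraries.

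Zc3h7a, which encodes a CCCH zinc finger protein that binds RNA, hosted the other circular RNA called higher. It spans 173 bp on chromosome 16, from 11144001 to 11144173. It was listed at 0 in controls 1, 3, 4, 5 and 8 and stood at 2.75 CPM in control 2. In CCl4 livers 1, 2, 4, 5, 7 and 8 it stood at 4.58, 3.65, 0, 1.47, 1.57 and 2.21 CPM. Control 2 therefore exceeded 4 of the 6 CCl4 livers, and the groups overlapped. The means were 0.459 ± 1.12 CPM for controls and 2.25 ± 1.64 CPM for CCl4 livers (SD, n = 6 each), from 9 and 111 reads, and the log2 difference was 2.85 (SE 0.77, limma adjusted p = 0.0469). The call held in 14 of 33 alternative settings, among them the one with no filter, which repeated the main fit because the filter removed 0. It was lost without any of controls 1, 4, 5 or 8, or of CCl4 1, 2, 5, 7 or 8, when the limma adjusted p ran from 0.0621 to 0.205. On recovered reads edgeR with TMM gave an adjusted p of 0.00323. The call was lost with DESeq2 (adjusted p = 0.548) and with edgeR on the library totals implied by the CPM values (adjusted p = 0.422).

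**Figure D2:**
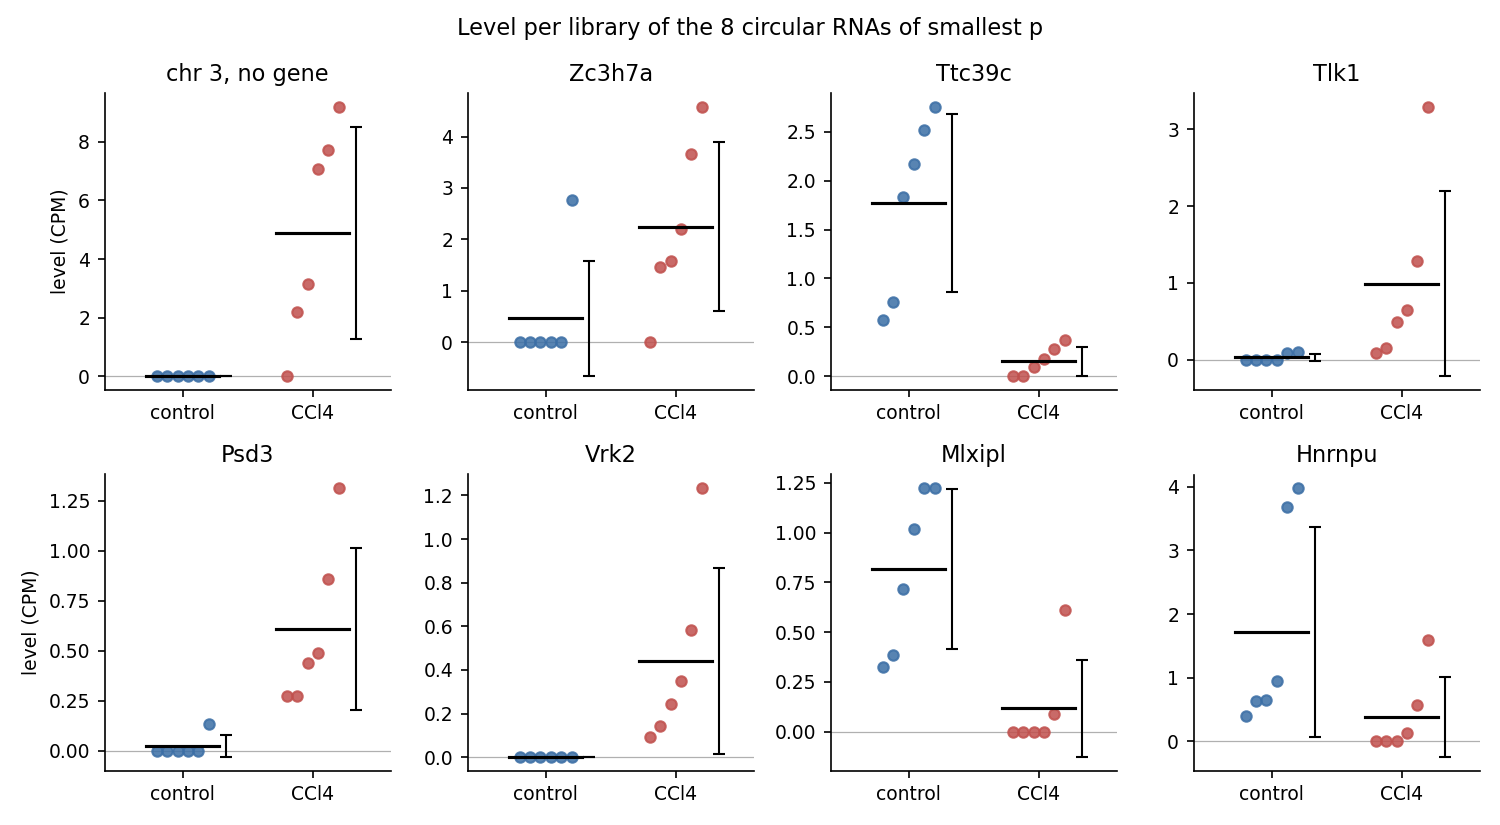
Level in CPM (y axis, a linear scale of its own in each panel) of the 8 circular RNAs of smallest p in 6 control and 6 CCl4 libraries; points are libraries, bars the mean and whiskers the SD. Only the first 2 panels, chromosome 3 and Zc3h7a, show circular RNAs that passed, and the Ttc39c, Psd3 and Vrk2 panels show groups that do not overlap.

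Groups that did not overlap were a separate set. Of 434 circular RNAs 3 (0.691%) had every CPM value of one group above every CPM value of the other, those of Ttc39c, Psd3 and Vrk2. None of the 3 passed in the fit of these 12 libraries.

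Ttc39c encodes a protein of tetratricopeptide repeats, a fold that binds other proteins. Its circular RNA from 12684837 to 12698059 of chromosome 18 stood at 2.18, 2.75, 0.763, 2.52, 0.571 and 1.83 CPM in controls 1, 2, 3, 4, 5 and 8. In CCl4 livers 1, 2, 4, 5, 7 and 8 it stood at 0, 0, 0.274, 0.367, 0.175 and 0.0919 CPM. The highest CCl4 liver lay below the lowest control. The means were 1.77 ± 0.911 CPM in controls and 0.151 ± 0.149 CPM in CCl4 (SD, n = 6 each), from 80 and 8 reads, a log2 difference of −2.76 (SE 0.78, limma adjusted p = 0.0567). The exact permutation p was 0.00216, the smallest that 6 against 6 can give, with an adjusted p of 0.313 over all 434. It passed in 10 of 33 alternative settings, among them edgeR with TMM (adjusted p = 0.0323), DESeq2 (adjusted p = 0.0122) and the fit of all 18 libraries (limma adjusted p = 0.0357). With the library totals implied by the CPM values edgeR gave an adjusted p of 0.269.

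Both other circular RNAs of Ttc39c had negative differences too, with no call. That from 12728620 to 12730117, the most abundant of the 3, stood at 3.60 ± 3.60 CPM in controls and 0.656 ± 0.669 CPM in CCl4 (SD, n = 6 each), a log2 difference of −1.52 (limma adjusted p = 0.586). That from 12684837 to 12689887, which shares its start with the circular RNA described first, had −1.04 (limma adjusted p = 0.761).

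Psd3 encodes an exchange factor for the small GTPase Arf6, and its circular RNA from 67882981 to 67908889 of chromosome 8 had higher values in CCl4. It was at 0.135 CPM in control 3 and at 0 in the other 5 controls, and at 0.858, 1.31, 0.274, 0.489, 0.437 and 0.276 CPM in CCl4 livers 1, 2, 4, 5, 7 and 8. In CPM the lowest CCl4 liver stood above the highest control. In reads the groups overlapped. Control 3 held 3 reads, worth 0.135 CPM, while the 0.274 CPM of CCl4 4 lay below the 0.411 CPM of 3 reads there. Among the controls at 0 the floor of 3 reads reached 0.918 CPM (control 2), above every CCl4 value but that of liver 2. The log2 difference was 2.18 (SE 0.72, limma adjusted p = 0.191). Its counterparts from the same gene had −0.54 and −0.35, the latter sharing an end with it.

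Vrk2 encodes a vaccinia-related kinase of the endoplasmic reticulum. Its circular RNA from 26534211 to 26550075 of chromosome 11 was at 0 in 6 of 6 controls and at 0.143, 0.584, 1.23, 0.245, 0.350 and 0.0919 CPM in the CCl4 livers, in the order above. Every CCl4 liver had reads of it, but only 21 in all. The CCl4 mean of 0.441 ± 0.426 CPM (SD, n = 6) is close to the mean control floor of 0.432 CPM. The log2 difference was 1.86 (SE 0.63, limma adjusted p = 0.191), and on recovered reads edgeR gave an adjusted p of 0.0323 and DESeq2 of 0.0275, the 2 of 32 alternative settings in which it passed. With the implied library totals edgeR gave 0.160.

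Fisher's exact test of presence gave an unadjusted p under 0.05 for 3 circular RNAs (0.691%), those on chromosome 3 and in Psd3 and Vrk2, and called 0 (0%) after adjustment, the smallest exact adjusted p being 0.939. That adjusted value belongs to a Fisher p of 0.00216, the smallest that 6 against 6 can give. A circular RNA alone at this limit could not pass, so the adjusted test cannot decide whether presence differs. Those listed at 0 in all 6 controls also numbered 3: chromosome 3, Vrk2 and a circular RNA of Arhgap32, which encodes a GTPase-activating protein, from 32181842 to 32208265 of chromosome 9. The last had reads in 3 of 6 CCl4 livers (mean 0.133 ± 0.222 CPM, SD, n = 6; log2 0.71, limma adjusted p = 0.586). No circular RNA was at 0 in all 6 CCl4 livers. Every circular RNA of the table is above 0 in at least 9 of the 18 libraries of the series, of which 12 come from CCl4-injected mice, so one seen only in controls could not be in the table, while one missing from controls could.

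The kinase gene Tlk1, whose product acts in chromatin assembly, hosts a pair of circular RNAs that end at the same base of chromosome 2 and pointed in opposite directions. The shorter one, from 70770004 to 70786995, was at 0 in controls 1 to 4 and at 0.0816 and 0.102 CPM in controls 5 and 8. In CCl4 livers 1, 2, 4, 5, 7 and 8 it stood at 1.29, 0.146, 3.29, 0.489, 0.0874 and 0.644 CPM. All CCl4 livers had reads of it, and only liver 7 fell below the highest control. This amounts to 46 reads against 2 and a log2 difference of 2.22 (SE 0.73, limma adjusted p = 0.191). The shorter one passed in 5 of 33 alternative settings, with edgeR and TMM at an adjusted p of 0.00584 and DESeq2 at 0.0082. With the implied library totals edgeR gave an adjusted p of 0.160. The longer one, from 70768862 to 70786995, had 22 reads in CCl4 and 51 in control libraries, at 0.415 ± 0.261 and 1.16 ± 1.35 CPM (SD, n = 6 each), a log2 difference of −0.53 (limma adjusted p = 0.878).

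The balance between 2 circular RNAs of one gene was taken as the difference of their log2 values, which depends on the pseudocount and the scaling where a form is at 0. The longer Tlk1 form exceeded the shorter by a mean log2 ratio of 2.13 in controls, and in CCl4 livers the ratio was −0.62. The change of −2.75 (SE 0.91) had a limma adjusted p of 0.149 over the 44 genes tested in this way, of which 0 (0%) passed. Among the alternatives run for this ratio it passed without control 2 alone (limma adjusted p = 0.0367). The change was −1.92 without CCl4 liver 4 (limma adjusted p = 0.553), −2.21 without control 4 (limma adjusted p = 0.472) and −1.68 at a pseudocount of 0.5 CPM (limma adjusted p = 0.292). At an unadjusted p under 0.05 there were 2 genes (4.55%), Tlk1 and Pik3c2a, a lipid kinase gene, with a change of 1.78 (limma adjusted p = 0.589).

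**Figure D3:**
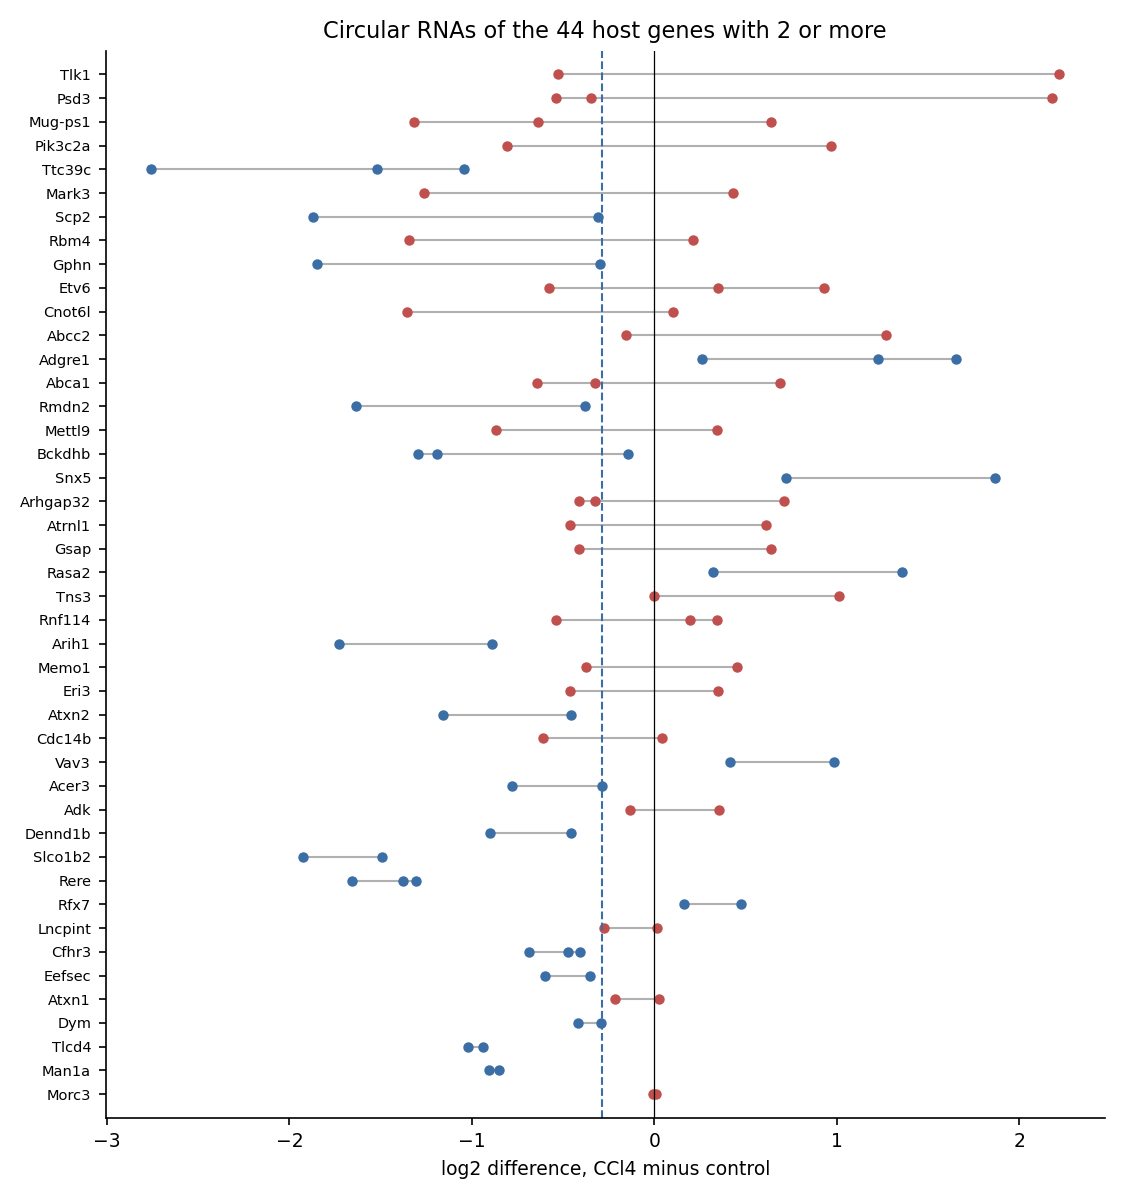
Log2 difference between CCl4 and control livers (x axis) of each circular RNA in the 44 host genes with 2 or more, 1 gene per line and sorted by the width of its range. Red marks the 23 genes whose circular RNAs differ in sign and blue the other 21; the dashed line is the median of all 434, −0.29, and Tlk1 and Psd3 have the widest ranges.

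Among these 44 genes, 33 with 2 circular RNAs and 11 with 3, all members were negative in 16, all positive in 5 and mixed in 23. The 5 were Adgre1, Rasa2, Rfx7, Snx5 and Vav3. In Rere, a transcriptional corepressor gene, the 3 circular RNAs had −1.66, −1.38 and −1.31 (smallest limma adjusted p = 0.402). In Snx5, a sorting nexin gene of endosomes, they had 1.87 (limma adjusted p = 0.37) and 0.72. Circular RNAs of one gene are not independent of each other, and 28 of the 434 share a start with another and 38 an end.

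The remaining circular RNAs of small p mostly had lower values in CCl4 livers, and none passed. Mlxipl encodes the carbohydrate-responsive transcription factor of fat synthesis. Its circular RNA stood at 1.22, 1.22, 0.718, 0.387, 0.326 and 1.02 CPM in controls 1, 2, 3, 4, 5 and 8. It was at 0 in 4 CCl4 livers, at 0.611 CPM in liver 5 and at 0.0874 CPM in liver 7. Liver 5 alone of the CCl4 group reached the control range (log2 −2.2, SE 0.74, limma adjusted p = 0.191).

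That of Pon1, the paraoxonase carried by high-density lipoprotein, stood at 0.952, 1.53, 0, 1.35, 0.653 and 1.93 CPM in controls. In the CCl4 livers it stood at 0.143, 0, 0, 0.122, 0.0874 and 0.276 CPM. Control 3, with the fewest recovered back-splice reads but the lowest floor in CPM of the 12, was the single control at 0. Without it the circular RNA of Pon1 passed (limma adjusted p = 0.0495), the only alternative setting in which it did. It did not pass without controls 3 and 4 (limma adjusted p = 0.082) or with DESeq2 (adjusted p = 0.361). With all 12 the log2 difference was −2.07 (limma adjusted p = 0.247). Hnrnpu, which encodes a nuclear RNA-binding protein, had −2.15 and the pseudogene Gm9762 had −2.17, both with a limma adjusted p of 0.247. The reads of Gm9762 may be shared with near-identical copies.

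Slco1b2 encodes the hepatocyte transporter that takes up bile acids and drugs. Its circular RNA from 141663578 to 141672313 of chromosome 6 ran from 0.180 to 1.22 CPM in controls, was at 0.143 and 0.262 CPM in CCl4 livers 1 and 7 and was at 0 in the other 4. The log2 difference was −1.92 (limma adjusted p = 0.334). Its other circular RNA, from 141648489 to 141657606, had −1.49 (limma adjusted p = 0.464). Slc33a1, the acetyl-CoA carrier of the endoplasmic reticulum, had 24 reads in controls and 1 in CCl4 (log2 −1.67, limma adjusted p = 0.373).

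Further lower values belonged to Scp2, a sterol carrier protein (−1.87), Gphn, gephyrin (−1.85), and Cped1 (−1.78), each with a limma adjusted p of 0.39. Tmbim6, a membrane protein of the endoplasmic reticulum, had −1.86, Arih1, a ubiquitin ligase, −1.73, and Rmdn2 −1.64 for its circular RNA from 79650302 to 79672573 of chromosome 17, each with a limma adjusted p of 0.402. Dock4, an exchange factor for Rac, had −1.54 (limma adjusted p = 0.411). Higher values belonged to Nmt1, the enzyme that attaches myristate to proteins. Its circular RNA had 28 reads in CCl4 and 8 in control libraries (log2 1.77, limma adjusted p = 0.39).

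The circular RNAs of highest mean level showed wide spread among controls. The most abundant, in the ubiquitin ligase gene Ube3a, stood at 3.67, 20.5, 0, 21.3, 1.80 and 5.29 CPM in controls 1, 2, 3, 4, 5 and 8 and at 2.72, 3.80, 2.88, 3.67, 2.45 and 0 CPM in the CCl4 livers. The CCl4 values lay within the control range. Its means were 8.76 ± 9.57 CPM in controls and 2.58 ± 1.37 CPM in CCl4 (SD, n = 6 each; log2 −0.96, limma adjusted p = 0.832).

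Gramd1c, whose product moves cholesterol between membranes, stood at 5.60 ± 4.97 CPM in controls and 2.95 ± 1.65 CPM in CCl4 (log2 −0.92, limma adjusted p = 0.852). Rmdn2, which encodes a regulator of microtubules, stood at 5.85 ± 5.72 and 2.05 ± 0.626 CPM for its circular RNA from 79650302 to 79659473 (log2 −0.38, limma adjusted p = 0.903). Alg12, a mannosyltransferase of protein glycosylation, stood at 2.73 ± 2 and 1.68 ± 1.09 CPM (log2 −0.81, limma adjusted p = 0.877; SD, n = 6 each). For these 4 the difference between group means was smaller than the SD of the controls.

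Host genes were then grouped by what they do in liver. In bulk tissue, fewer cells of a type and less RNA per cell cannot be told apart, and this applies to every group below. Drug metabolism and detoxification genes hosted 5 circular RNAs, all with negative differences, of which 0 passed (median −1.29, against −0.29 over all 434; −1.40 with each library scaled to its own sum). They were Pon1 (−2.07), the carboxylesterase Ces1c (−1.63, limma adjusted p = 0.543), the cytochrome enzymes Cyp1a2 (−1.29, limma adjusted p = 0.464) and Cyp2c70 (−0.65), and the flavin monooxygenase Fmo5 (−0.07). Cyp1a2 had 15 reads in controls and 1 in CCl4. Of the reads of a library, these 5 together took 0.493% to 2.42% in controls (median 1.98%) and 0.203% to 0.779% in CCl4 (median 0.507%). Control 4 alone lay within the CCl4 range. Against controls 1, 5 and 8 alone the median log2 difference of these 5 was −1.35.

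Lipid and fatty acid genes hosted 11, which also had negative differences throughout, and 0 passed (median −0.79). Scaled to the library's own sum the median was −0.49, with 3 then positive. Against controls 1, 5 and 8 alone it was −0.27, and −0.09 over all 434. After Mlxipl the lowest values were those of Acaca, the enzyme that makes malonyl-CoA (−1.08), and both circular RNAs of Tlcd4 (−1.02 and −0.94). Acss3 and Elovl5, a fatty acid elongase, had −0.79 each. Acer3, a ceramidase, had −0.78 and −0.29, Sptlc2, a subunit of the first enzyme of sphingolipid synthesis, −0.07, and Pnpla8, a phospholipase, −0.00202. These genes took 3.09% to 7.56% of the reads in controls (median 3.77%) and 1.40% to 3.84% in CCl4 (median 2.31%), and the ranges overlapped.

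The other metabolic groups stood nearer to the median of all. Bile acid and cholesterol genes hosted 11 circular RNAs with 3 positive and 0 called (median −0.45). Both circular RNAs of Slco1b2 were the lowest, and one of Abcc2, which exports conjugated bilirubin into bile, was the highest (1.27, limma adjusted p = 0.619). Amino acid, urea cycle, nucleoside and glucose genes hosted 12, with 4 positive and 0 called (median −0.36). The lowest were those of Cth, the enzyme that makes cysteine from cystathionine (−1.50, limma adjusted p = 0.586), and of Bckdhb, part of the enzyme complex that breaks down branched-chain amino acids (−1.30, limma adjusted p = 0.631). Plasma protein genes hosted 6, with 1 positive and 0 called (median −0.32). Among them the 3 of Cfhr3, a complement factor H-related gene whose copies may share reads, had −0.69, −0.47 and −0.41.

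**Figure D4:**
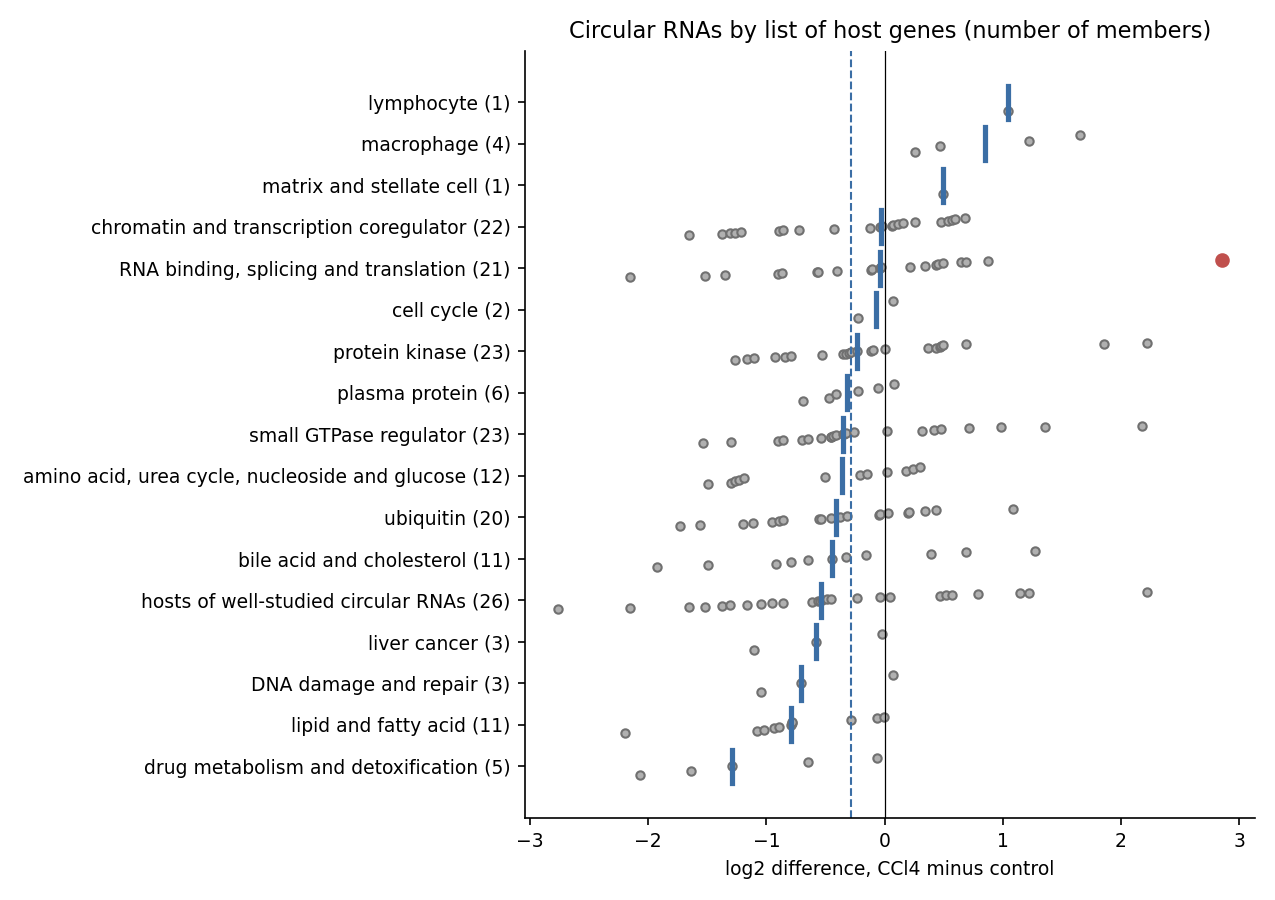
Log2 difference between CCl4 and control livers (x axis) of the circular RNAs in each group of host genes (y axis, number of members in brackets); points are circular RNAs, spread vertically for legibility, and blue bars the group medians. The dashed line is the median of all 434, −0.29; the red point, Zc3h7a, is the only member that passed.

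Circular RNAs of immune and matrix genes had positive differences, on few reads. Macrophage genes hosted 4 and 0 passed, with a median of 0.85 (1.16 when scaled to the library's own sum). Of these, 3 lie in Adgre1, a surface marker of mouse macrophages, and 1 in Mertk, a receptor for the uptake of dying cells. The Adgre1 circular RNA from 57406834 to 57408495 of chromosome 17 was at 0.272 CPM in control 1 and at 0 in the other 5 controls. In CCl4 livers 1, 2, 4, 5, 7 and 8 it was at 1.29, 0.146, 0.686, 0.734, 0.262 and 0 CPM (log2 1.65, limma adjusted p = 0.39). Of the 6 CCl4 livers, 3 lay above every control.

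The further circular RNAs of Adgre1 had 1.22 (limma adjusted p = 0.672) and 0.26 (limma adjusted p = 0.902), and that of Mertk 0.47 (limma adjusted p = 0.878). The 4 together took 0% to 0.530% of the reads in controls (median 0.282%) and 0.430% to 3.05% in CCl4 (median 1.12%). CCl4 8, at 0.430%, lay within the control range. Ikzf1, a transcription factor of lymphocytes, was the only lymphocyte gene (1.05, limma adjusted p = 0.761), and Mmp15, a membrane metalloproteinase, the only matrix gene (0.49, limma adjusted p = 0.878). Genes of neutrophils, endothelium, bile duct cells and red blood cells hosted 0. The 9 circular RNAs of hepatocyte markers included 2 positive ones (median −0.22). They took 1.41% to 3.33% of the reads in controls (median 2.08%) and 0.717% to 2.04% in CCl4 (median 1.31%), and the ranges overlapped. The part that the makeup of cell types has in the values above was not tested.

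**Figure D5:**
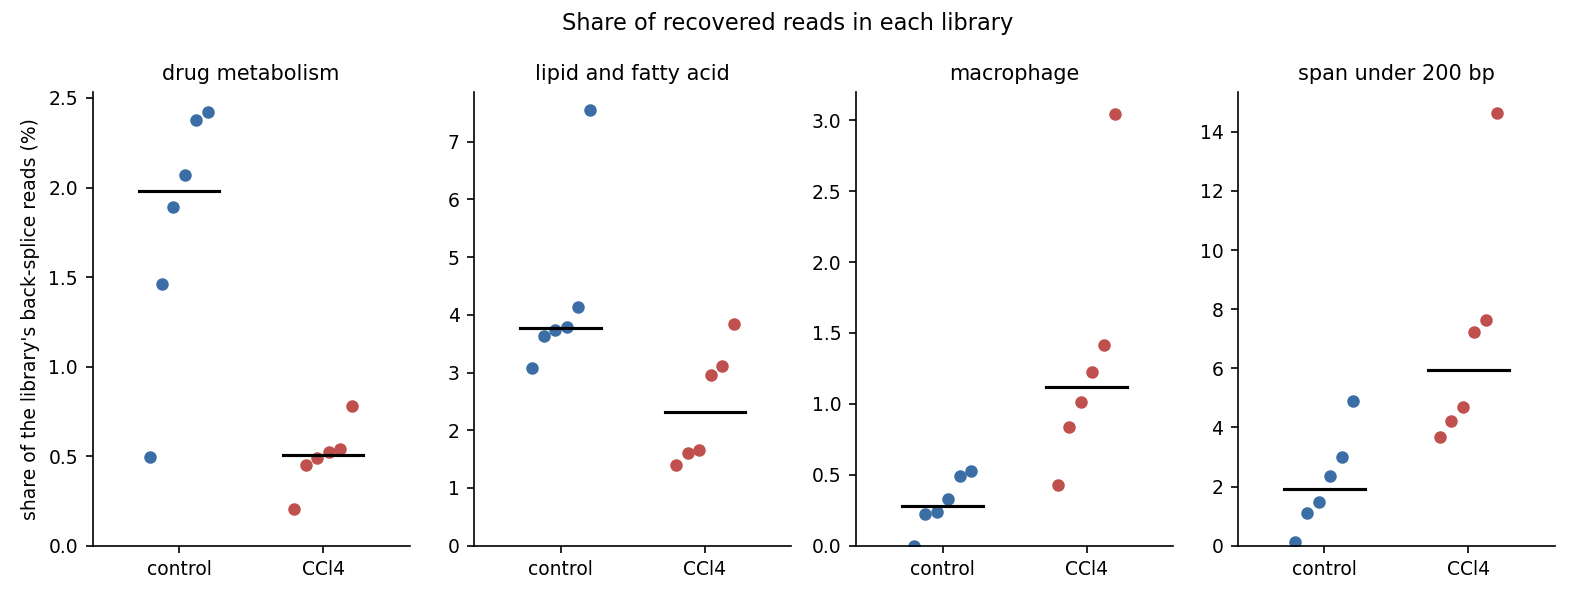
Share of each library's recovered back-splice reads (y axis, percent, a scale of its own in each panel) in circular RNAs of drug metabolism, lipid and macrophage genes and in those spanning under 200 bp; points are libraries, 6 per group, and bars the medians. Shares were lower in CCl4 for the first 2 panels and higher for the last 2 by median, and the ranges of the groups overlap in all 4. In the last panel the 7 circular RNAs other than the called ones had medians of 1.88% in controls and 1.39% in CCl4.

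Gene groups that concern the nucleus and signalling held more members. RNA binding, splicing and translation genes hosted 21 circular RNAs, of which 1, that of Zc3h7a, rose and 0 fell (9 positive, median −0.04). The name patterns behind this list also took in 1 circular RNA of the kinase gene Rps6ka5 and 2 of the histidine methyltransferase gene Mettl9, and the other 18, set apart after the values were seen, had 7 positive and a median of −0.07. Chromatin and coregulator genes hosted 22, with 10 positive and 0 called (median −0.03). Protein kinase genes hosted 23, with 9 positive and 0 called (median −0.23), those of Tlk1 and Vrk2 the highest. Small GTPase regulator genes hosted 23, with 8 positive and 0 called (median −0.35), from Dock4 at −1.54 to Psd3 at 2.18. Ubiquitin genes hosted 20, with 6 positive and 0 called (median −0.41), the lowest in Arih1. Scaling to the library's own sum turned the sign of some of these medians: for RNA binding genes it was 0.32 with 13 of 21 positive (0.25 for the 18), and for kinase genes 0.07 with 14 of 23 positive. It was −0.04 for chromatin, −0.07 for small GTPase regulator and −0.18 for ubiquitin genes. Against controls 1, 5 and 8 alone the median of the small GTPase group was 0.19 and that of the amino acid group 0.07. Of 26 from genes known as hosts of well-studied circular RNAs, 8 were positive and 0 were called (median −0.54, or −0.13 when scaled to the library's own sum).

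Genes tied to cancer were thinly represented. The 3 circular RNAs of liver cancer genes were negative and did not pass (median −0.58), with that of Egfr, the epidermal growth factor receptor, at 0.968 ± 0.548 CPM in controls and 0.553 ± 0.628 CPM in CCl4 (SD, n = 6 each; log2 −1.11, limma adjusted p = 0.761). Cell cycle genes hosted 2, in E2f5 (−0.23, limma adjusted p = 0.951) and Brca2 (0.07, limma adjusted p = 0.984). DNA damage and repair genes hosted 3, with 1 positive and 0 called (median −0.71), and the lowest was that of Rad52 (−1.05).

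Both called circular RNAs join ends less than 200 bp apart, as do only 9 of the 434. The other 7 included Crk, an adaptor of tyrosine kinase signalling (1.22, limma adjusted p = 0.543), and Ube2g2, a ubiquitin-conjugating enzyme of the endoplasmic reticulum (−1.56, limma adjusted p = 0.477), and 6 of the 9 had negative values. With libraries scaled to their own sum 5 of the 9 were positive. Together the 9 took 0.111% to 4.89% of the reads in controls (median 1.91%) and 3.67% to 14.6% in CCl4 (median 5.95%). CCl4 8 gave the highest share and control 3 the lowest. Without the 2 called ones, a split made after the values were seen, the other 7 held 242 reads in controls and 110 in CCl4, with shares of 0.111% to 4.89% (median 1.88%) and 0.540% to 2.59% (median 1.39%), so the higher share in CCl4 lay in the called ones. The 57 that span 200 bp to 1 kb had a median of 0.05 with 30 positive, the 248 of 1 to 10 kb a median of −0.29 and the 120 of over 10 kb a median of −0.30.

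The deposit of controls 2, 3 and 4 came after that of the other 9 libraries, and all CCl4 libraries belong to the first deposit. Between these 3 controls and controls 1, 5 and 8, limma called 0 of 434 (0%), with 8 (1.84%) at an unadjusted p under 0.05 and a median log2 difference of 0.35. With controls 1, 5 and 8 alone the comparison called the same 2 higher, and with controls 2, 3 and 4 alone it called 1, that on chromosome 3.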

How the data were processed

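Circular RNA was measured in mouse liver RNA depleted of ribosomal RNA, read as pairs of 150 bp. The authors deposited CPM values, back-splice reads scaled to a library total. Per the submitters' processing notes, the build was GRCm38 and the tools were HISAT2 2.2.1, Bowtie2 2.5.1, StringTie 2.1.5, cutadapt 4.2 and FastQC 0.11.9. Which caller found the circular RNAs, which total scaled them and which filter was set: not given in the sources used here. Each of the 434 has a value above 0 in 9 or more of the 18 libraries. Samples were grouped by their labels, and 0 value columns were left unmapped.

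All 5208 values (100%) lay within 0.1 of whole reads, 16915 in total. Hosts are the genes of GRCm38.p6 that hold both ends (of several, the shortest that codes for protein); strand, exons and introns were not used, so reads of an antisense partner would be given to the host.

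The test was limma 3.58.1 in R 4.3.3, with intensity trend, on log2(CPM + 0.129), where 0.129 is the median, over the 12 libraries, of the lowest value above 0. It was two-sided, Benjamini-Hochberg adjusted over 434, with a threshold of 0.05. The filter (non-zero in 3 or more of 12) removed 0, so the alternative with no filter repeated this fit. Fold changes on this scale understate those of low values. The fit's prior degrees of freedom were infinite, so each SE (0.37 to 0.91) follows the level and not the spread of that circular RNA. Exact permutation tests served for single values per library and Fisher's exact test for presence.

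Alternatives were edgeR 4.0.16 and DESeq2 1.42.0 on recovered reads, other scalings, pseudocounts, filters and tests, subsets of controls, a replicate block and each library left out; leaving out controls 3 and 4 together, the shared numbers without a block, own-sum scaling of the deposit check and the exact permutation test per circular RNA were chosen after seeing the data. On the recovered reads edgeR with TMM called 5 and DESeq2 4. Named were the called circular RNAs, those of smallest p up to 24, the 6 of highest mean, in each host list the called member or that of smallest p, and others of the same hosts. Further list members, Arhgap32, Pik3c2a, Crk and Ube2g2 were named after their values were seen. In the lipid list 1 member is not reported here. Members and lists were chosen with earlier results of these data known. limma was tested on simulated data. Other steps ran in Python 3.11.15 (scipy 1.17.1, pandas 2.3.3, numpy 2.4.6, matplotlib 3.10.9).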

Additional observations from a re-analysis of the deposited data

Results flagged for a closer look

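The levels of the named circular RNAs and 3 measures of each library (summed CPM, circular RNAs detected and recovered reads) were examined in controls and in CCl4 livers, 108 groups of 6 libraries in all, of which 102 concern a circular RNA. In 26 of the 108 the highest or lowest library stood apart from the other 5, its gap to the nearest exceeding Dixon's critical value for 6. Chance flags about 1 in 20 groups where values follow a normal distribution, and 8 of the 26 were groups with a single value above 0.

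Among controls, control 2 stood apart for Zc3h7a (2.755 CPM, the other 5 at 0), Cped1 (1.224), Mmp15 (0.9183) and the Gphn circular RNA from 78343352 to 78412433 (1.531). Control 4, which has the highest summed CPM, stood apart for Dock4 (2.129), Ikzf1 (0.9677), the Slco1b2 circular RNA from 141648489 to 141657606 (2.903), the Cfhr3 one from 139622055 to 139628309 (1.355) and the Scp2 one from 108102291 to 108112284 (1.548). Control 3 did so for Psd3 (0.1347, the other 5 at 0) and control 1 for the Adgre1 circular RNA from 57406834 to 57408495 (0.2719, the other 5 at 0).

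Among CCl4 livers, number 5 stood apart for Mlxipl (0.6115 CPM), Hnrnpu (1.59), both circular RNAs of Gphn (0.9784 and 1.223), the Rmdn2 one ending at 79672573 (0.2446) and the Psd3 one starting at 67904117 (1.101). Number 1 did so for Slc33a1 and Cyp1a2 (0.143 each, the other 5 at 0) and the Ttc39c circular RNA ending at 12689887 (0.7149). Number 4 did so for the shorter Tlk1 circular RNA (3.291) and the Scp2 one starting at 108102291 (0.4114). Number 7 did so for the Slco1b2 circular RNA starting at 141648489 (0.3497) and the Arih1 one starting at 59436771 (0.0874), and number 2 for Dock4 (0.292). Number 8 was the only one at 0 for Ube3a.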

How the results depend on the processing

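The count called higher (2 in the comparison as reported) was 1 with pseudocounts of 0.5 and 1 CPM, with controls 2, 3 and 4 only, with edgeR on the implied totals, without controls 3 and 4, with a replicate block and for the same 5 shared replicate numbers with no block. It was 0 with a filter of 6 or more libraries above 0, which removes the circular RNA on chromosome 3, and with an exact rank-sum test (24 at an unadjusted p under 0.05), and 4 with edgeR and TMM. Leaving out each library gave 1 to 2. Replicate numbers only name mice: deviations of same-numbered mice correlated at −0.042 to 0.080, and 1 of 10 libraries correlated best with its own number. The count called lower (0) was 1 with the filter on the mean, with own-sum, TMM or quantile scaling, with all 18 libraries, with no intensity trend, with edgeR and TMM, with DESeq2 and without controls 3 and 4. Leaving out each library gave 0 to 2, and 2 came without control 3. The difference in circular RNAs detected (−5.33) ran from −14.9 to 2.67 with single libraries left out, and the count of host genes whose ratio differed from 0 to 1.

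Among named circular RNAs that did not pass, signs turned with controls 2, 3 and 4 only for Snx5 from 144255340 to 144255604 (−0.45), the longer Tlk1 (0.26), Psd3 from 67904117 (0.54), the abundant Rmdn2 (0.76) and E2f5 (0.11). Without controls 3 and 4 they turned for Mmp15 (−0.0132), Cfhr3 from 139622055 (0.11) and Scp2 from 108102291 (0.24), with DESeq2 for that Cfhr3 (0.0829), Gphn to 78412433 (0.18) and E2f5 (0.0769), and with edgeR and TMM for that Gphn (0.23). That Scp2 was at 0.00506 with library weights, and Adgre1 from 57418888 at −0.00700 with the replicate block and for its 5 numbers with no block. With single libraries left out the values ran from −0.77 to 0.0742 for that Cfhr3 (positive without control 4), from −0.57 to 0.17 for that Scp2 (positive without control 4), from −1.27 to 0.11 for that Rmdn2 (positive without control 4), from −0.76 to 0.16 for that Gphn (positive without control 2) and from −0.52 to 0.16 for E2f5 (positive without control 2, CCl4 7 or CCl4 8). The deposit check called 0 with own-sum scaling too (21 at an unadjusted p under 0.05). The causes were not tested. With 900 to 2840 reads per library, low circular RNAs rest on single reads.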
